A study of Mus musculus with 36 samples.

Results

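Genes that mark the fibroblasts and the arachnoid layer of the meninges were followed through the mouse optic nerve and retina. They were the 10 gene symbols Ptgds, Slc6a13, Slc13a4, Slc47a1, Aldh1a2, Crabp2, Foxc1, Tbx18, Igfbp2 and Pi16, taken by name from the 55487 genes of the deposited count table. The choice was made with earlier results of these data known. All 10 were found, each under 1 Ensembl gene ID. The 36 bulk RNA-seq libraries came from C57BL/6 mice of 2 to 4 months of age and covered the unmyelinated optic nerve of the nerve head (UON), the myelinated optic nerve behind it (MON) and the whole retina. Each tissue was taken from naïve mice without a procedure, from mice at 3 days or 2 weeks after optic nerve crush, and from mice at 3 days, at 2 weeks or at 6 weeks after microbead injection into the eye, the model labelled glaucoma. Every group held 1 pool of RNA from 2 females and 1 pool from 2 males, so that n was 2 pools per group, and the pool and the sex cannot be told apart. All 3 tissues were dissected from the same animals, which made 12 pools of mice with 1 library per tissue. The tissue behind the UON was discarded before the MON was cut, so the libraries are 2 separated segments of 1 nerve.

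The optic nerve is wrapped by dura, arachnoid and pia, which are continuous with the meninges of the brain and fuse with the sclera around the nerve head. Leptomeningeal fibroblasts make retinoic acid, carry organic solutes between cerebrospinal fluid and blood, and deposit collagen, and the arachnoid barrier layer seals the cerebrospinal fluid space with tight junctions. In these bulk samples, fewer cells of a type and less RNA per cell cannot be told apart. Ptgds is also made by oligodendrocytes, and Igfbp2 by many neural and glial cells, so neither is specific to meninges.

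Library totals ran from 16158723 to 58461609 estimated counts in UON, from 16326906 to 78054205 in MON and from 19931516 to 55990831 in retina. The tissue labels were checked against marker lists, each given as the sum of its genes in FPKM (fragment counts scaled by the authors for transcript length and library depth). The 5 photoreceptor genes summed to 20517 to 27099 FPKM in the retinas and to at most 111 FPKM in the nerve libraries. The 7 mature oligodendrocyte genes summed to 1181 to 17740 FPKM in UON and to 19986 to 57487 FPKM in MON, without overlap. After the values were seen, 2 libraries were set apart, the UON of the male glaucoma pool at 6 weeks, with low values, and the MON of the male glaucoma pool at 3 days, with high values. That MON library was the highest for Slc6a13, Aldh1a2, Crabp2, Tbx18 and Pi16, and not for the other members. The male crush MON library at 3 days, lowest for Ptgds, Slc6a13, Slc13a4 and Igfbp2, was not set apart. The regional step over 12 pools, the glaucoma comparisons and the correlations are given with and without the 2 libraries set apart.

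Promoter sequence is shown for 4 members that were called higher in UON than in MON over 12 pools, chosen because their sequence before the gene held a CCAAT box. The stretches before Slc6a13, which had the largest difference of that comparison, and before Igfbp2 held 0 and are not shown. Only bases outside the annotated gene are given. The sequences are from RefSeq (GRCm38.p6), run 5′ to 3′ on the strand of the gene, and end at the base before the gene's annotated start. Of the 10 genes, 8 had an entry in the promoter table. Capitals mark CCAAT or its reverse complement ATTGG, the CCAAT box of many promoters.
Slc13a4, chr6:35308132-35308376, minus strand: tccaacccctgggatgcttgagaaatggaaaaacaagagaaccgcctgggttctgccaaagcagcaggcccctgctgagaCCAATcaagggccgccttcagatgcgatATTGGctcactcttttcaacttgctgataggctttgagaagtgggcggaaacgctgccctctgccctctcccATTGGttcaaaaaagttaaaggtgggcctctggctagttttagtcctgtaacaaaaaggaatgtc
Aldh1a2, chr9:71215539-71215788, plus strand: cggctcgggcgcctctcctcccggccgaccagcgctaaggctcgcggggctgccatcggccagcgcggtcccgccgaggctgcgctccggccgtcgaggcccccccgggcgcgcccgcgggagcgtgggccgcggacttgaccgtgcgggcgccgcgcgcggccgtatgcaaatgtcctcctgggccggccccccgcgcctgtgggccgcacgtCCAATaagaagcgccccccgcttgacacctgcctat
Foxc1, chr13:31806396-31806632, plus strand: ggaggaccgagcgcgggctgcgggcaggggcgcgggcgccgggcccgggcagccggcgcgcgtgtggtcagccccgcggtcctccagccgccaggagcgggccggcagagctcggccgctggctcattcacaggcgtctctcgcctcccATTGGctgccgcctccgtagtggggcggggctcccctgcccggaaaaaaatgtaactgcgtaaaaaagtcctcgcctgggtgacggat
Tbx18, chr9:87731261-87731510, minus strand: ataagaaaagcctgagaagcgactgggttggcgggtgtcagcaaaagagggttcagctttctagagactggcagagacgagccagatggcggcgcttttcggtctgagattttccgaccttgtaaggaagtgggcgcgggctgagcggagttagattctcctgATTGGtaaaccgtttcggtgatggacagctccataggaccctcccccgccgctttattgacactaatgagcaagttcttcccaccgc
Slc13a4 carried 3 CCAAT boxes in this stretch, and Aldh1a2, Foxc1 and Tbx18 carried 1 each, which is the property they were chosen by. Over windows of 250 bases before a start site, searched on both strands, 33.8% of all 32851 windows held the motif and 6 of the 11 windows of the members did. These belonged to Aldh1a2, Foxc1, Pi16, Slc13a4, Slc6a13 and Tbx18. For Slc6a13 this holds for the whole window, while its 189 bases outside the annotated gene held 0. The 4 stretches differed in base composition, with a GC content of 50.6% in Slc13a4, 54% in Tbx18, 72.6% in Foxc1 and 77.6% in Aldh1a2, against a median of 52.4% over all windows. A forkhead motif (GTAAACA), a T-box motif (AGGTGTGA) and the TATA box (TATAAA) were each found in 0 of the 11 member windows. Among all windows they were found in 3.17%, 1.12% and 12.4%. The letters of a motif were matched, which is not a measure of binding.

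Ptgds (ENSMUSG00000015090, GRCm38 chr2:25466709-25470046) encodes lipocalin-type prostaglandin D synthase, which makes prostaglandin D2 and is secreted into cerebrospinal fluid as a carrier. It was the most abundant member in every tissue by median FPKM. In naïve mice its level was 20834 FPKM in the female and 11777 FPKM in the male UON pool, 2498 and 6498 FPKM in MON, and 202 and 213 FPKM in retina. Over all 12 libraries of a tissue, the level ran from 729 to 31729 FPKM in UON with a median of 12704, from 409 to 6498 FPKM in MON with a median of 1497, and from 95.1 to 303 FPKM in retina with a median of 156. This 1 gene took 1.23% of all counts in the median UON library and 3.07% in the highest, against 0.0151% in the median retina. The UON and MON ranges overlapped, with 3 UON libraries (3824, 3735 and 729 FPKM) below the highest MON library, and the retina lay below both.

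The member transporters were the next group. Slc6a13 (ENSMUSG00000030108, chr6:121300227-121337733) encodes the GABA and taurine transporter GAT2 of leptomeninges. Its naïve levels were 116 and 62.8 FPKM in UON, 4.11 and 12.9 FPKM in MON, and 3.01 and 2.27 FPKM in retina. Slc13a4 (ENSMUSG00000029843, chr6:35267957-35308131) encodes a sodium-coupled sulfate transporter. It was at 252 and 246 FPKM in the naïve UON, 54.8 and 34.3 FPKM in MON, and 0.902 and 1.06 FPKM in retina. Slc13a4 was the steadiest member of the UON relative to its level there, with 121 to 280 FPKM over 12 libraries, all of them above the highest MON library at 120 FPKM. Slc47a1 (ENSMUSG00000010122, chr11:61343401-61378345), the multidrug and toxin extrusion transporter MATE1, was low and variable, with 0.186 to 22.2 FPKM in UON, 0.212 to 7.65 FPKM in MON and 0.12 to 0.767 FPKM in retina. Its ranges in the 3 tissues overlapped.

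Aldh1a2 (ENSMUSG00000013584, chr9:71215789-71296243) encodes the retinaldehyde dehydrogenase that makes retinoic acid in the meninges. It was at 116 and 83.3 FPKM in the naïve UON, at 5.90 and 14.2 FPKM in the naïve MON and at 0.0707 and 0.207 FPKM in the naïve retina. Over all libraries the medians were 84.1 FPKM in UON, 7.56 FPKM in MON and 0.0538 FPKM in retina, where 4 of the 12 libraries had a count of 0. Crabp2 (ENSMUSG00000004885, chr3:87948666-87953376), which carries retinoic acid to its nuclear receptor, was at 69.8 and 48.2 FPKM in the naïve UON, 2.27 and 11.1 FPKM in MON, and 1.39 and 1.3 FPKM in retina. Both retinoid genes were thus listed at their highest in the nerve head, and Aldh1a2 was near 0 in every retina while Crabp2 was not.

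The 2 transcription factors were expressed at low levels. Foxc1 (ENSMUSG00000050295, chr13:31806633-31812476), a forkhead factor needed for meningeal and anterior eye development, was at 3.31 and 1.76 FPKM in the naïve UON, 0.472 and 1.47 FPKM in MON, and 0.103 and 0.0765 FPKM in retina. Tbx18 (ENSMUSG00000032419, chr9:87702800-87731260), a T-box factor of meningeal and mural cells, was at 2.38 and 2.84 FPKM in UON, 0.702 and 0.470 FPKM in MON, and 0.00707 and 0 FPKM in retina. In retina, 5 of 12 libraries had no Tbx18 count.

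Igfbp2 (ENSMUSG00000039323, chr1:72824503-72852474), a secreted binding protein of insulin-like growth factors, had a different distribution. Its median was 27.2 FPKM in UON, 13.7 FPKM in MON and 23.5 FPKM in retina, and its retinal values stayed between 17.3 and 30.2 FPKM while those of UON ran from 12 to 76.3 FPKM. Pi16 (ENSMUSG00000024011, chr17:29317680-29330593), a surface peptidase inhibitor of adventitial and other universal fibroblasts, had medians of 20.8 FPKM in UON, 11.7 FPKM in MON and 0.119 FPKM in retina. The medians of Igfbp2 and Pi16 lay less than 2-fold apart between the nerve segments, unlike those of the other 8 members. By median FPKM the order in UON was Ptgds, Slc13a4, Aldh1a2, Slc6a13, Crabp2, Igfbp2, Pi16, Foxc1, Tbx18 and Slc47a1. In that order, neighbours from Aldh1a2 to Crabp2 and from Foxc1 to Slc47a1 had ranges over the 12 libraries that lay largely over each other.

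**Figure D1:**
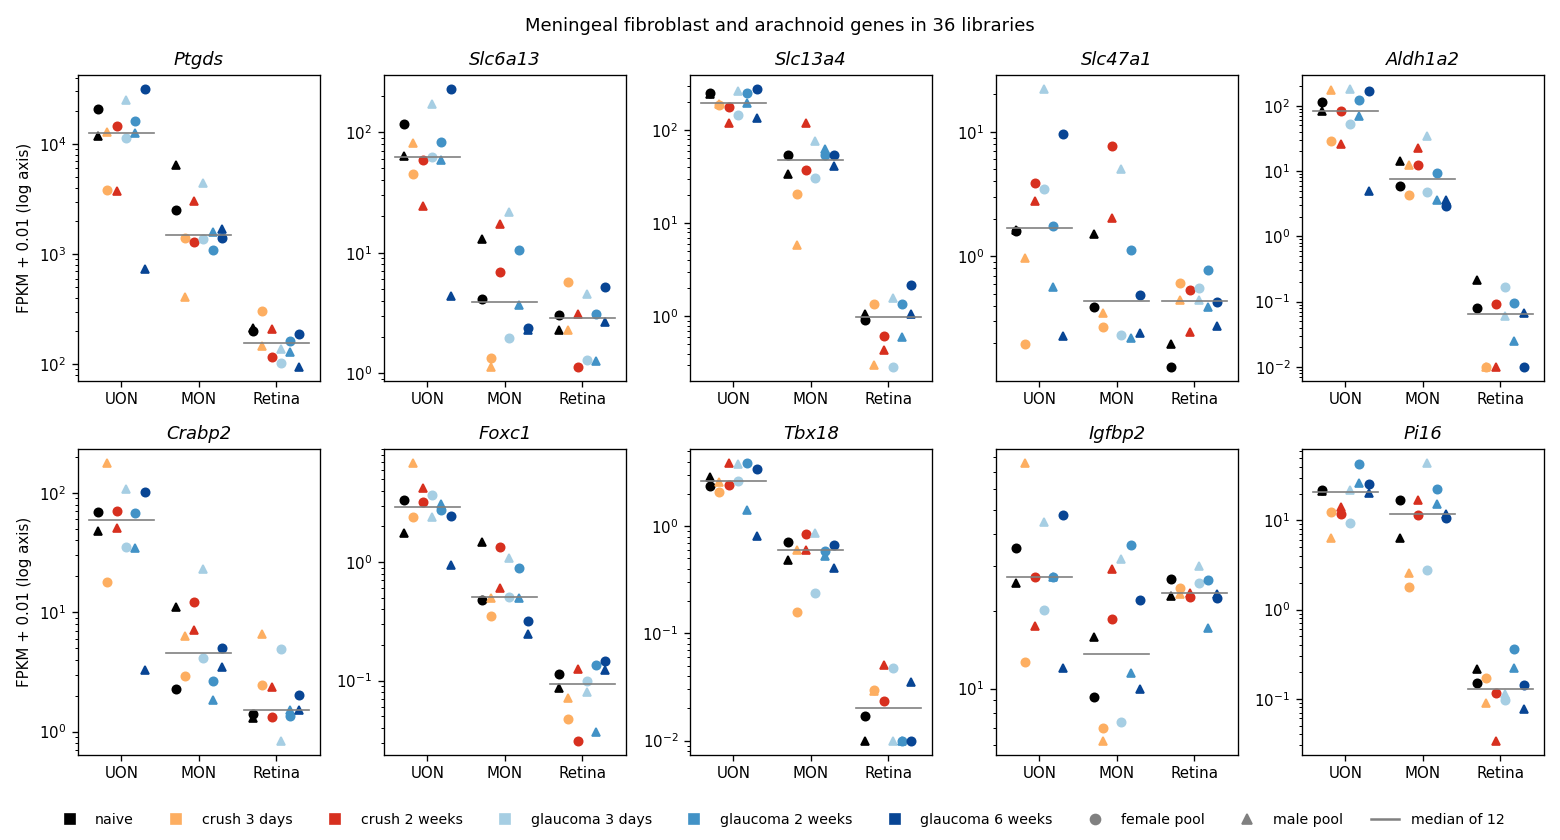
Level of each member in FPKM (plus 0.01, log axis) in the 12 libraries of each tissue, with colour for injury and time, circles for female and triangles for male pools, and a line at the median. Retina lies orders below the nerve for Slc13a4, Aldh1a2, Tbx18 and Pi16, while Igfbp2 has a retinal median of 23.5 FPKM beside 27.2 in UON, and the male glaucoma pool at 6 weeks is the lowest UON library for 7 members.

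The first comparison asked how the naïve UON differs from the naïve MON. Of the 10 members, 5 were called higher in UON and 0 lower, a call requiring an adjusted p below 0.05 together with a log2 fold change beyond 1. Among all 23685 genes tested, 4.83% were called higher. The 5 genes were Slc6a13 (log2 fold change 3.55, SE 0.578, adjusted p = 0.0113), Aldh1a2 (3.39, SE 0.423, adjusted p = 0.00424), Crabp2 (3.34, SE 0.644, adjusted p = 0.0208), Slc13a4 (2.45, SE 0.305, adjusted p = 0.00424) and Igfbp2 (1.24, SE 0.308, adjusted p = 0.0494). Tbx18 at 2.11 (adjusted p = 0.0661) and Ptgds at 1.84 (adjusted p = 0.0628) missed the threshold, as did Foxc1 at 1.38, Slc47a1 at 0.95 and Pi16 at 0.81. All 10 log2 fold changes were above 0, with a median of 1.98 against -0.06 over all genes tested. With 2 pools per tissue, Igfbp2 lost its call when the female UON or the female MON library was left out, with log2 fold changes of 0.95 and 0.82. A fit that leaves 1 library in a group takes the spread from the other groups and assumes that the lone library varies like them. In such fits Ptgds was called without the male UON or the male MON library, Foxc1 without the male MON, Pi16 without the female MON, and Tbx18 without the female UON or either retina.

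The same question over all 12 pools, each pool serving as its own block, gave 8 members called higher in UON, 0 lower, beside 5.46% of all 27498 genes called higher. Naïve and injured mice both enter this fit, so it describes the region averaged over the conditions. Slc6a13 had the largest difference, with a log2 fold change of 3.69 (SE 0.531, adjusted p = 5.38e-05), and its CPM (count scaled to library depth) was higher in UON in 12 of 12 pools. The retinoid genes followed, Crabp2 at 3.24 (SE 0.383, adjusted p = 6.87e-06, 11 of 12 pools) and Aldh1a2 at 3.09 (SE 0.412, adjusted p = 2.41e-05, 12 of 12 pools). Ptgds was at 2.54 (SE 0.484, adjusted p = 0.000805, 11 of 12 pools).

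A further 3 members, the transcription factors and the steady Slc13a4, differed by nearly the same amount. Tbx18 was at 2.28 (SE 0.240, adjusted p = 2.00e-06), Slc13a4 at 2.28 (SE 0.305, adjusted p = 2.53e-05) and Foxc1 at 2.26 (SE 0.271, adjusted p = 8.24e-06), each higher in UON in 12 of 12 pools. Slc47a1 passed narrowly at 1.17 (SE 0.410, adjusted p = 0.0488), was higher in 9 of 12 pools, and lost the call in 8 of the 12 fits that left out 1 pool, with an adjusted p of up to 0.129. It kept the call without the male naïve, the female crush pools of 3 days and 2 weeks, or the male glaucoma pool at 6 weeks. Igfbp2 at 0.89 (SE 0.277, adjusted p = 0.0269) and Pi16 at 0.83 (SE 0.25, adjusted p = 0.0225) were each higher in UON in 10 of 12 pools but under the fold threshold, and Igfbp2 passed it without the female glaucoma pool at 2 weeks, at 1.01.

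The size of the step varied between pools. Slc6a13 differed by 0.39 log2 units in the male glaucoma pool at 6 weeks and by 6.55 in the female pool of the same group. In that male pool Ptgds was lower in UON than in MON, by -1.31 on the log2 scale, and Crabp2 by -0.13. Without this pool the log2 fold changes were 2.79 for Ptgds, 3.94 for Slc6a13, 3.29 for Aldh1a2 and 3.47 for Crabp2. Without the male glaucoma pool at 3 days they were 2.5, 3.72, 3.12 and 3.31, and Slc47a1 was no longer called, at 1.02 with an adjusted p of 0.129. Over the 10 injured pools alone, a fit added after the values were seen, 7 members were called higher in UON, the 8 above without Slc47a1, beside 4.57% of all 26201 genes. In the same pools 9 members were called higher in UON than in retina, beside 20.7% of all genes, and 7 in MON than in retina, beside 21.2%.

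**Figure D2:**
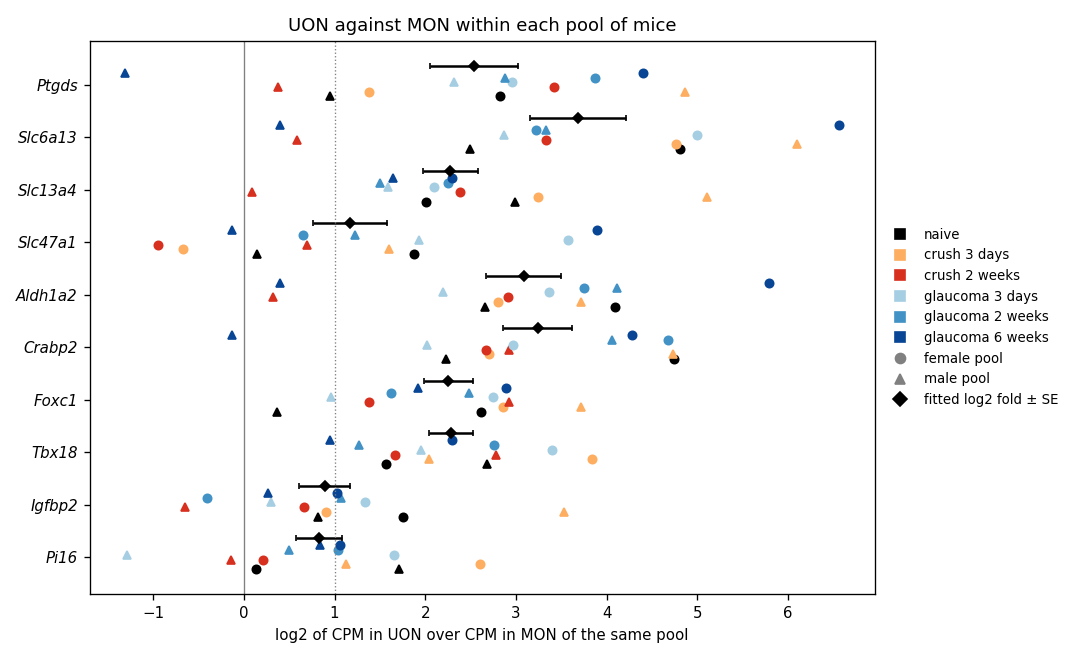
For each member, the log2 ratio of CPM in UON to CPM in MON within each of the 12 pools of mice, coloured by injury and time, with the fitted log2 fold change and its SE as a diamond. Points right of 0 are higher in UON, as are all 12 pools for Slc6a13, Slc13a4, Aldh1a2, Foxc1 and Tbx18, while the male glaucoma pool at 6 weeks lies at -1.31 for Ptgds.

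Both nerve segments were also compared with the retina. Over 12 pools, 9 of 10 members were called higher in UON than in retina, all but Igfbp2, beside 21.1% of all 28347 genes tested. The largest differences were those of Aldh1a2, with a log2 fold change of 10.84 (SE 0.579), Slc13a4 with 8.37 (SE 0.274), Tbx18 with 8.06 (SE 0.585) and Pi16 with 7.34 (SE 0.238). Aldh1a2 and Tbx18 had no count in 4 and 5 of the 12 retina libraries. The size of their differences therefore rests on retinal values near the floor, and Tbx18 passed the filter on low counts only through the nerve libraries. Ptgds was at 6.45, Foxc1 at 5.61, Crabp2 at 5.08, Slc6a13 at 4.99 and Slc47a1 at 2.70, and the largest adjusted p of these 9 was 0.000486. Igfbp2 differed by 0.57 (SE 0.201, adjusted p = 0.0224), under the fold threshold. The median over all genes was -0.27 in both this comparison and the next, and the members' values stand relative to it.

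MON against retina over 12 pools also called 9 of 10 members higher, beside 21.1% of all 27567 genes. Aldh1a2 was at 7.65 (SE 0.564), Pi16 at 6.47 (SE 0.437), Slc13a4 at 6.00 (SE 0.325) and Tbx18 at 5.85 (SE 0.740). For Aldh1a2 and Tbx18 the size again rests on retinal values near the floor. Smaller differences were those of Crabp2 at 1.66 (SE 0.409, adjusted p = 0.00217), of Slc47a1 at 1.32 (SE 0.5, adjusted p = 0.0305) and of Slc6a13 at 1.16 (SE 0.412, adjusted p = 0.0222). Slc6a13 was higher in MON than in retina in 9 of 12 pools and Slc47a1 in 8 of 12, whereas Aldh1a2, Slc13a4, Tbx18, Pi16, Ptgds and Foxc1 were higher in 12 of 12 with ranges that did not overlap. The share of all genes with ranges apart in this way was not computed. Igfbp2 was at -0.42 (SE 0.223, adjusted p = 0.108). Of the 12 fits without 1 pool, Slc47a1 lost this call in 5, those without either naïve pool, either crush pool of 2 weeks or the male glaucoma pool at 3 days, and Slc6a13 in 3, those without the male pool of the same 3 groups. In the naïve libraries alone, 9 members were called higher in UON than in retina, beside 18.2% of all genes, and 9 in MON, beside 16.7%, again all but Igfbp2. In naïve MON against retina, leaving out the male MON library ended the calls of Slc6a13 (0.90) and Slc47a1 (2.04) and called Igfbp2 lower (-1.01), and leaving out the male retina ended that of Slc47a1 (2.69).

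Other genes of the same cell types were read from lists that leave out the 10 members, in the comparison of UON with MON over 12 pools. Of all 27498 genes tested there, 5.46% were called higher in UON (1501 genes), and 1831 genes were called lower. The counts of every list below stand beside these. Of 16 leptomeningeal fibroblast genes, 12 were called higher in UON and 0 lower, with a median log2 fold change of 2.5 against -0.03 over all genes tested. Slc22a6, an organic anion transporter, had the largest change at 3.59 (adjusted p = 0.00197) and Slc6a20a, a proline transporter, was next at 3.37 (adjusted p = 0.00179). The summed level of that list did not follow the count, with 1128 to 2581 FPKM in UON and 1061 to 1889 FPKM in MON. Apod, which had medians of 1149 FPKM in UON and 1434 FPKM in MON, makes up most of that sum, and oligodendrocytes and Schwann cells express it as well. The arachnoid barrier list was mixed: Dpp4 at 2.64 (adjusted p = 0.00057) and Cdh1 (E-cadherin) at 1.80 (adjusted p = 0.0333) were called higher among 5 genes, and Cldn11, the claudin of arachnoid and also of myelin, was lower at -2.16. In naïve mice alone, 5 of the 16 leptomeningeal genes were called higher and 0 lower, beside 4.83% of all genes called higher. Of the 5 arachnoid barrier genes, 2 were called higher and 2 lower in naïve mice.

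Of 8 genes of collagen-producing fibroblasts, 7 were called higher in UON, led by Col1a2 at 3.21 and Dcn (decorin) at 1.78, and 1 was lower, Pdgfra at -1.13, which also marks oligodendrocyte precursors. Their summed level was 413 to 1345 FPKM in UON and 116 to 436 FPKM in MON. Adventitial fibroblast genes were called higher for 4 of 7, with Cd248 at 2.37 and Dpt at 2.07, and dural fibroblast genes for 2 of 5, among them Mgp (matrix Gla protein) at 1.07. In naïve mice alone, 5 of 8 collagen, 2 of 7 adventitial and 2 of 5 dural genes were called higher, 0 lower. None of these lists had 0 counts for a gene in all 12 libraries of a tissue.

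The retinoic acid pathway list held 10 genes besides the members, and 4 were called higher in UON, 0 lower, against 7 higher and 0 lower in naïve mice alone. Stra6, the retinol uptake receptor, was at 2.72 (adjusted p = 6.87e-06), with medians of 115 FPKM in UON and 15.6 FPKM in MON. The list summed to 897 to 1614 FPKM in UON, 240 to 718 FPKM in MON and 127 to 169 FPKM in retina, without overlap between tissues.

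Markers of other cell types moved with the same comparison, and their part in the members' difference was not tested. All 7 mature oligodendrocyte genes were called lower in UON, from Opalin at -3.22 and Mog at -3.13, with a median of -2.88. Of 4 smooth muscle genes, 3 were called higher, with Cnn1 (calponin) at 4.56 and Acta2 at 2.70, and the list summed to 138 to 589 FPKM in UON and 13.7 to 194 FPKM in MON. Sclera and tendon genes were called higher for 3 of 6, with Fmod (fibromodulin) at 3.48 and Chad at 1.99, and summed to 299 to 685 FPKM in UON and 36.6 to 285 FPKM in MON.

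The remaining lists moved less. Astrocyte genes were called higher for 2 of 5, Slc1a3 at 1.81 and Gja1 at 1.69, and pigment cell genes for 2 of 6, Tyrp1 at 6.04 from a median of 0.150 FPKM in UON and 0 in MON and Pmel at 1.45. The pigment cell list summed to at most 17.0 FPKM in any nerve library. One gene was called higher in each of the pericyte (Rgs5, 1.07, of 6), endothelium (Cdh5, 1.79, of 4) and skeletal muscle lists (Tnnt3, 1.86, of 4), and the photoreceptor list had 0 of 5. Of 5 housekeeping genes, Actb was lower at -1.21 and 0 were higher.

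The 5 genes whose log2 CPM over the 24 nerve libraries lay closest to the mean standardised level of the members were sought among 23581 expressed genes. They were Slc22a8 (Pearson's r = 0.978), Pcolce (0.974), Fbln1 (0.969), Ogn (0.964) and Igfbp6 (0.962). Slc22a8 encodes the organic anion transporter OAT3, Pcolce an enhancer of procollagen processing, Fbln1 fibulin-1 and Ogn the small proteoglycan osteoglycin, and Igfbp6 binds insulin-like growth factors. Each was higher in UON than in MON in 11 or 12 of the 12 pools, by median log2 differences of 4.19 for Slc22a8, 2.36 for Pcolce, 1.90 for Fbln1, 3.81 for Ogn and 3.74 for Igfbp6. These libraries share the difference between the segments, so the correlations describe that step together with the spread within each segment. A higher level of the 5 genes in UON therefore follows in part from how they were chosen. Among the members themselves, r with their own mean, which includes the gene itself, was highest for Slc6a13 at 0.976 and lowest for Pi16 at 0.612. Without the 2 libraries that stand apart, a choice made after the values were seen, these were 0.979 and 0.659, the 5 genes had r of 0.964 to 0.979, and 4 of them were again among the closest 5, all but Igfbp6.

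Within UON, several members varied together from library to library. Over the 12 UON libraries, r with Ptgds was 0.965 for Aldh1a2 (Spearman's rho 0.916) and 0.963 for Slc6a13 (rho 0.944), each with a permutation p of 2e-05 and 0.00018 after adjustment over the 18 relations computed in UON and MON. When the 2 libraries farthest from the median of Ptgds were left out, the female crush pool at 3 days and the male glaucoma pool at 6 weeks, r was 0.881 for Aldh1a2 and 0.965 for Slc6a13. In 6 of 6 groups the pool with more Ptgds by CPM also had more Aldh1a2, Slc6a13, Crabp2 and Igfbp2. Igfbp2 was near a tie in glaucoma at 2 weeks, at 40.0 and 39.6 CPM in the female and the male pool. In FPKM its order there was reversed, at 27.2 and 27.3. Slc13a4 followed with r = 0.698 (rho 0.846, adjusted permutation p = 0.0257) and with r = 0.856 without those 2 libraries, and Igfbp2 with r = 0.761 (rho 0.825, adjusted permutation p = 0.0106) and 0.626 without them. Crabp2 had r = 0.864 (rho 0.769, adjusted permutation p = 0.0141 for r and 0.0178 for rho), and r fell to 0.448 without them. Slc47a1 had r = 0.707 (rho 0.622, adjusted permutation p = 0.0257 for r and 0.0902 for rho), and r fell to 0.420. The size of r thus depended on the 2 libraries for both genes, and Slc47a1 did not pass with Spearman's rho. Without the male glaucoma library at 6 weeks alone, r with Ptgds was 0.910 for Slc6a13, 0.916 for Aldh1a2, 0.756 for Slc13a4 and Igfbp2, 0.661 for Crabp2 and 0.646 for Slc47a1.

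Foxc1, Tbx18 and Pi16 did not share this pattern by the same test. Their r with Ptgds in UON was 0.445 (rho 0.021, adjusted permutation p = 0.225), 0.641 (rho 0.497, adjusted permutation p = 0.109) and 0.110 (rho 0.322, adjusted permutation p = 0.699). Without the 2 libraries r was -0.430, 0.053 and 0.340. In MON, Ptgds was related to Slc6a13 (r = 0.731, rho 0.594, adjusted permutation p = 0.0244, r = 0.606 without the 2 farthest libraries) and Slc13a4 (r = 0.673, rho 0.622, adjusted permutation p = 0.0481, r = 0.698 without them). With Spearman's rho neither MON relation passed, at adjusted permutation p values of 0.103 and 0.0902. The other 7 members had r between 0.222 and 0.533 with Ptgds in MON. Without the male glaucoma library at 3 days, r was 0.655 for Slc6a13 and 0.632 for Slc13a4.

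**Figure D3:**
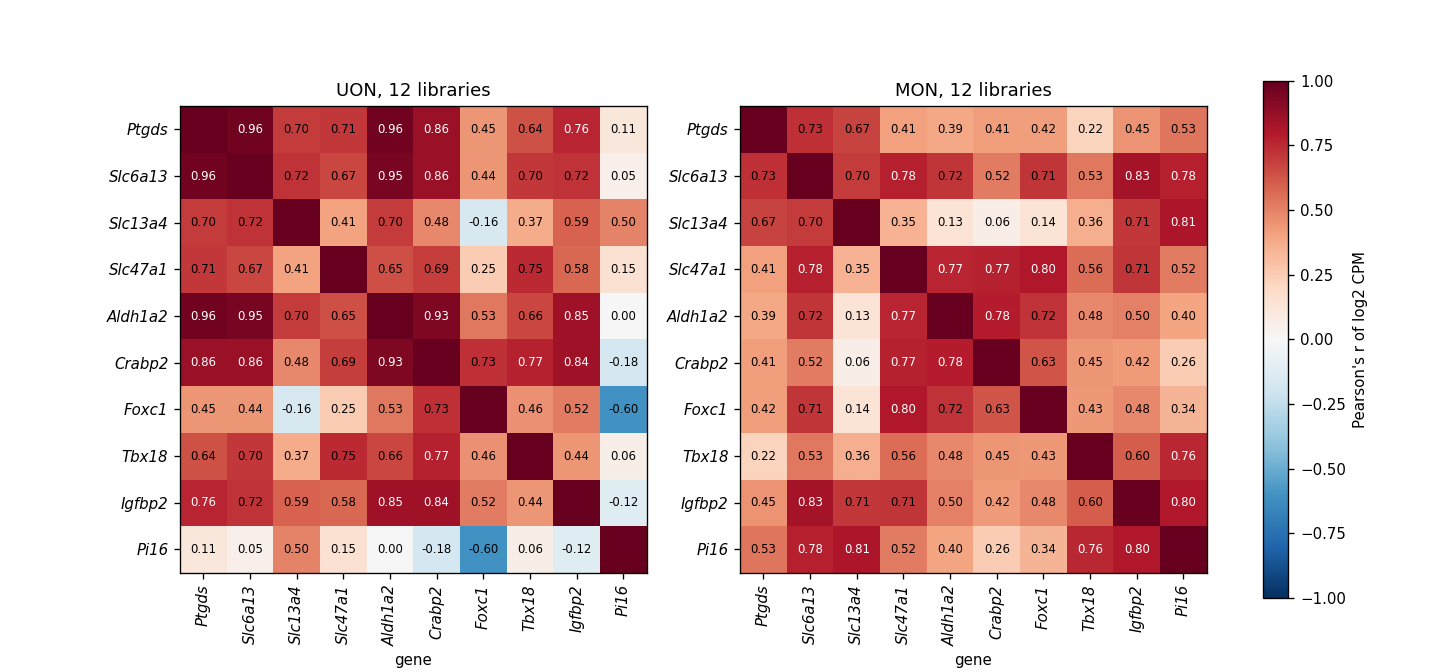
Pearson's r of log2 CPM between each pair of members over the 12 UON libraries and over the 12 MON libraries. In UON the block of Ptgds, Slc6a13, Aldh1a2 and Crabp2 has r of 0.86 to 0.96, and Pi16 has r from -0.60 with Foxc1 to 0.50 with Slc13a4, while in MON Pi16 has r of 0.81 with Slc13a4.

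The library with the lowest values of this block was the UON of the male glaucoma pool at 6 weeks. It had 729 FPKM of Ptgds, 4.36 FPKM of Slc6a13, 4.98 FPKM of Aldh1a2 and 3.28 FPKM of Crabp2, and the female pool of the same group had 31729, 229, 170 and 102 FPKM. Slc13a4 and Pi16 differed less between these pools, with 134 and 280 FPKM of Slc13a4 and 20.2 and 25.7 FPKM of Pi16 in the male and the female pool. In the male pool the pericyte list summed to 65.4 FPKM, the lowest of the UON libraries, against 345 FPKM in the female pool, the collagen list to 413 against 691 FPKM, the leptomeningeal list to 1156 against 1634 FPKM, the arachnoid barrier list to 27.9 against 61.9 FPKM, the smooth muscle list to 589 against 277 FPKM and the oligodendrocyte list to 14208 against 6109 FPKM. The retinoic acid list was at 1160 and 1175 FPKM in the male and the female pool, and the adventitial list was higher in the male pool, at 224 against 167 FPKM. In MON, the male glaucoma pool at 3 days held 35.0 FPKM of Aldh1a2, 21.7 FPKM of Slc6a13, 23.1 FPKM of Crabp2 and 44.5 FPKM of Pi16, and its female pool held 4.72, 1.97, 4.15 and 2.80 FPKM. The collagen list summed to 390 FPKM in that male pool and to 116 FPKM in the female pool, the adventitial list to 153 against 65.3 FPKM and the retinoic acid list to 606 against 374 FPKM. The leptomeningeal list was at 1440 and 1400 FPKM, while the arachnoid barrier list, at 119 against 200 FPKM, and the dural list, at 221 against 261 FPKM, were lower in the male pool. The part that these other cell types had in the members' values was not tested.

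The second question was how crush and raised eye pressure changed these genes, each tissue being compared with its naïve libraries at each time. In the 15 comparisons, edgeR called 0 members. An unadjusted p below 0.05 was found for 3 of 50 member tests in UON, 11 of 50 in MON and 4 of 43 in retina, and DESeq2 called 0, 3 and 0 and limma on FPKM 0, 2 and 0 in the same order. The share of all genes called by DESeq2 and limma is not given here. Among all genes, an unadjusted p below 0.05 was found for 657 and 1980 of 21368 in UON at 3 days and 2 weeks after crush. In MON these were 4195 and 3204 of 19988, and in retina 1437 and 2037 of 22671. At the 3 glaucoma times in order, they were 868, 801 and 451 of 22438 in UON. In MON they were 1854, 2017 and 1127 of 22960, and in retina 1418, 1465 and 1321 of 23301. In UON the share of all genes called was 0.0281% at 2 weeks after crush and 0% in the other 4 comparisons, so few genes of any kind were called there with 2 pools per group. In MON it was 4.26% at 3 days and 2.72% at 2 weeks after crush, and 0% at each glaucoma time. In retina it was 0.0221% and 0.313% after crush and 0.00429%, 0% and 0.00858% in glaucoma at the 3 times in order. Aldh1a2 and Tbx18 did not pass the filter on low counts in the retinal crush comparisons, and Tbx18 did not in the retinal glaucoma comparisons.

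MON at 3 days after crush came nearest to a call. All 10 log2 fold changes were below 0 there, with a median of -1.44 against -0.0049 over all genes tested. An unadjusted p under 0.05 was found for 5 members, beside 4195 of all 19988 genes. Pi16 was at 1.78 and 2.55 FPKM in the crushed pools and at 16.8 and 6.36 FPKM in the naïve pools (log2 fold change -2.44, SE 0.547, adjusted p = 0.0543). Slc6a13 was at 1.33 and 1.12 FPKM against 4.11 and 12.9 FPKM (-2.32, SE 0.571, adjusted p = 0.0698). For both genes the crushed and naïve pools did not overlap, a weak criterion with 2 pools per group whose share over all genes was not computed.

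Ptgds was at 1390 and 409 FPKM against 2498 and 6498 FPKM (-2.19, SE 0.794, adjusted p = 0.175) and Slc13a4 at 20.5 and 5.82 FPKM against 54.8 and 34.3 FPKM (-1.92, SE 0.758, adjusted p = 0.206). Igfbp2 was at 7 and 6.25 FPKM against 9.26 and 15.9 FPKM (-0.92, SE 0.339, adjusted p = 0.180). These 3 genes did not overlap between the groups either, nor did Slc47a1, at 0.260 and 0.340 FPKM against 0.381 and 1.52 FPKM. With 2 pools per group this is a weak criterion, and the share of all genes that separate so was not computed. Slc47a1 at -1.70, Foxc1 at -1.18, Tbx18 at -0.80, Crabp2 at -0.40 and Aldh1a2 at -0.36 had adjusted p values from 0.304 to 0.793. The call depended on the fit: DESeq2 and limma on FPKM called Pi16 and Slc6a13 lower, edgeR with RLE scaling or without the sex term called Pi16, and edgeR without the filter on low counts called Pi16, Slc6a13, Slc13a4 and Ptgds. The share of all genes called by these fits, or by those without 1 library, is not given here. These calls therefore do not set the members apart from other genes. Leaving out 1 library gave between 0 and 4 members called lower in this comparison: 4 (Pi16, Ptgds, Slc13a4 and Slc6a13) without either 2-week crush library or the 3-day female crush library, Pi16 alone without the 3-day male crush or the male naïve library, and 0 without the female naïve library.

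At 2 weeks after crush the MON values were near or above the naïve ones for 9 of 10 members, with Slc47a1 at 7.65 and 2.01 FPKM against 0.381 and 1.52 FPKM (2.13, SE 0.898, adjusted p = 0.303) and Ptgds alone below at -1.13 (adjusted p = 0.530). In fits without 1 library, Slc47a1 was called without the 2-week male crush library, at 3.50, or without the 3-day female crush library, at 2.10, Slc13a4 without the 2-week female crush library, at 2.11, and Ptgds, at -2.12, without the 2-week male crush library. The values 3.50, 2.11 and -2.12 therefore each rest on 1 crushed pool. In UON, Pi16 had 12.3 and 6.32 FPKM at 3 days after crush against 21.7 and 21.4 FPKM in naïve mice (-1.36, SE 0.422, adjusted p = 1, unadjusted p = 0.0146). Crabp2 showed how far 2 pools could lie apart, with 18.0 FPKM in the female and 180 FPKM in the male UON pool at 3 days after crush.

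**Figure D4:**
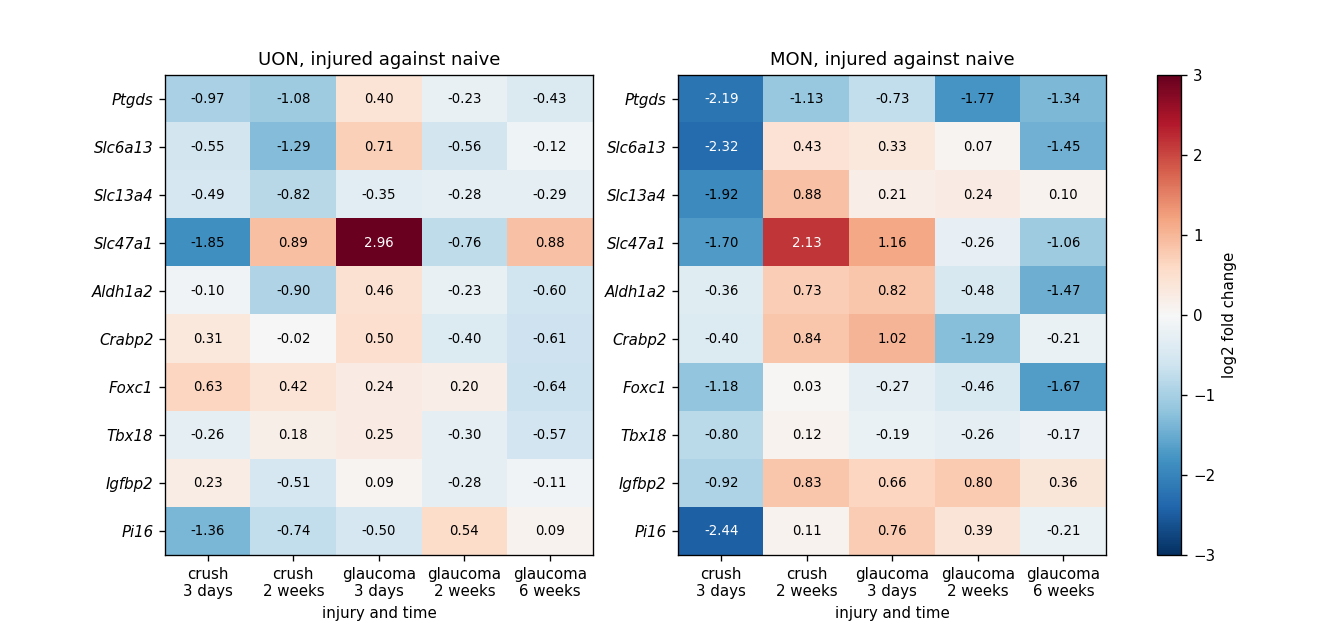
Log2 fold change of each member in injured against naïve mice in UON and in MON, with red for higher and blue for lower in injured mice, from fits with 2 pools per group. The column of MON at 3 days after crush is below 0 for all 10 members, down to -2.44 for Pi16, and no cell of the plot passed the threshold.

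The glaucoma comparisons called 0 members in the nerve. In UON, 8 of 10 log2 fold changes were above 0 at 3 days, 2 of 10 at 2 weeks and 2 of 10 at 6 weeks, with medians of 0.33, -0.28 and -0.36 and adjusted p values of 1 throughout. Without the low male library at 6 weeks, which leaves 1 pool at that time, 9 of 10 were above 0 at 6 weeks with a median of 0.79, 7 of 10 at 3 days and 2 of 10 at 2 weeks, so the direction at 6 weeks rests on that library. Slc47a1 had the largest value at 3 days (2.96, SE 1.48), with 3.44 and 22.2 FPKM against 1.59 and 1.62 FPKM in the naïve UON. In MON, 7, 4 and 2 of 10 were above 0 at these times, with medians of 0.49, -0.26 and -0.63, and the smallest adjusted p was 0.295. Without the high male library at 3 days, 0, 3 and 3 of 10 were above 0, with medians of -1.32, -0.41 and -0.91 and 0 calls, so the direction at 3 days rests on that library. DESeq2 alone called 1 member, Ptgds, in MON at 2 weeks, where its level was 1100 and 1593 FPKM against 2498 and 6498 FPKM (-1.77 and an unadjusted p of 0.00236 in edgeR). The share of all genes that DESeq2 called in that comparison is not given here. In retina, the smallest adjusted p of any member in glaucoma was 0.782, and in crush 0.632.

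Whether injury acted differently on the 2 nerve segments was tested as the difference between the UON and the MON response to the same injury. For 0 of 10 members was such a difference called at any of the 5 times, beside 0.012% of all genes at 3 days after crush and 0% at the other times, and 0 member tests had an unadjusted p under 0.05. DESeq2 and limma on FPKM also called 0, and edgeR without the filter on low counts called Slc6a13 at 3 days after crush. The share of all genes called without the filter is not given here. Without the female UON library of 2 weeks after crush, Aldh1a2 was called there, at -3.50. At 3 days after crush, 8 of 10 differences were above 0, with a median of 1.16 and a smallest adjusted p of 0.752. A response in MON was therefore not shown to differ from that in UON.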

How the data were processed

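The submitters' processing notes and the study's methods give HISAT2 2.2.1 for alignment to GRCm38 and StringTie 1.3.0 for assembly. The gene table holds expected counts that the authors derived from StringTie coverage and deposited without normalization, and the per-library tables hold FPKM values deposited by the authors. Libraries were made with an ultra-low-input kit from RNA pooled by sex. Counts were rounded and tested with edgeR 4.0.16 (R 4.3.3, quasi-likelihood F test, TMM scaling, filterByExpr with a minimum count of 10 and total of 15). A gene was called at a Benjamini-Hochberg adjusted p under 0.05 over all genes tested and a log2 fold change over 1 in either direction. Naïve tissues were compared with terms for tissue and sex, tissues over 12 pools with the pool as a block, injured with naïve mice within a tissue and model with terms for time and sex, and the difference in response with an interaction term. The pairing comes from the dissection of all 3 tissues from each animal.

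Alternatives were DESeq2 1.42.0, RLE scaling, no filter, limma 3.58.1 on log2(FPKM + 1) for genes at 1 FPKM or more in 2 libraries, the other block, and each library or pool left out. FPKM below 0, which some libraries held in few genes, was set to 0. Permutation tests of correlations were two-sided with 100000 resamples. The members and lists were chosen with earlier results of these data known. The text names all 10 members, up to 2 called genes in each direction per list by fold change in UON against MON over 12 pools, and the 5 genes most like the members' mean; Apod was named after its values were seen, and 2 genes that the rule would name are not reported here. The test was checked on simulated counts with the same spread for every gene and large planted changes. That setting is simpler than these pools, so it does not show how the test performs on them. P-values measure the spread between these pools of 2 mice. Antisense and pseudogene loci overlap Pi16, Tbx18 and Aldh1a2, and the strand setting of the counting is not given in the sources used here. The transcript-level count table was not used.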

Additional observations from a re-analysis of the deposited data

How the results depend on the processing

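The comparisons of UON with retina, over 12 pools and in naïve mice, called 9 members under every alternative. UON against MON called 7 or 8 members over 12 pools and 5 to 7 in naïve mice. Except for the 10 injured pools, the share of all genes called under an alternative is not given here. The counts that moved by more than 1.5 times were these. In MON after injury, summed over 5 comparisons, the count of 0 became 3 with DESeq2, 1 with RLE scaling, 2 with limma on FPKM, 5 without the filter on low counts and 1 with no replicate block (no sex term). MON against retina fell from 9 members to 5 over 12 pools and to 4 in naïve mice with limma on FPKM. Over 12 pools that fit tested 9 members, without Tbx18, which stayed under 1 FPKM in every MON and retina library. The difference between UON and MON responses went from 0 to 1 without the filter. Without 1 library or pool the counts ranged from 0 to 6 in MON after injury, 0 to 0 in UON and in retina, 0 to 1 for the difference in response, 7 to 8 for UON and 7 to 9 for MON against their partner over 12 pools (MON and retina respectively), 9 to 9 for UON against retina, and in naïve mice 5 to 7 for UON against MON, 9 to 9 for UON against retina and 8 to 9 for MON against retina. In MON at 3 days after crush, where 1 library was left out, log2 fold changes ran from -2.71 to 0.0087 for Slc47a1 and from -1.13 to 0.73 for Crabp2, above 0 without the male naïve library, and from -2.33 to 0.29 for Tbx18, above 0 without the female crush library. Taking the block out, or adding the pool as a block to the difference in response (0 called), changed no other count by more than 1. The causes were not tested. The 10 injured pools alone, added after the data were seen, called 7 members in UON against MON, 9 in UON and 7 in MON against retina, beside 4.57%, 20.7% and 21.2% of all genes. With 2 pools per group, a missing call does not show that a gene did not change.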
